A study of Homo sapiens with 12 samples.

Results

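The ADAM sheddases are the genes described here, as rows of a count table of 56269 genes. They were taken by symbol as ADAM8, ADAM9, ADAM10, ADAM12, ADAM15, ADAM17, ADAM19 and ADAM23, and all 8 were found and passed the filter on low counts that left 16069 genes for testing. RNA was sequenced from HEYA8, an established ovarian cancer cell line, in 12 libraries that form 4 groups of 3. The first group carried a control vector. The others expressed betaglycan (the type III TGF-β receptor, gene TGFBR3) as ∆GAG-BG, which carries no glycosaminoglycan chains, as S534A (CS-BG), a serine-to-alanine mutant with mainly chondroitin sulfate chains, or as S545A (HS-BG), the matching mutant with mainly heparan sulfate chains. Constructs were delivered with a lentiviral dTomato backbone and infected cells were sorted for dTomato. All groups share the HEYA8 background with its own TGFBR3 gene, and all were labelled as resting in serum-containing medium, with no ligand added. No library of full-length betaglycan is in the series, and the labels do not say whether the 3 libraries of a group came from separate cultures, so p-values measure the spread between these libraries.

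ADAM proteins are membrane-anchored metalloproteases with a prodomain that keeps the enzyme silent until it is removed, a catalytic domain that holds zinc, and a disintegrin domain that can bind integrins. Cut close to the membrane, a receptor, ligand precursor or adhesion molecule is released from the cell surface, which is called ectodomain shedding. ADAM10 and ADAM17 are the most widely used sheddases, TIMP3 is an inhibitor of both, and betaglycan is itself shed, so the question put to these genes was whether their mRNA differs with the chains that betaglycan carries.

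Of the 8 genes, ADAM8, ADAM12 and ADAM23 varied most between libraries and ADAM19 had the highest level. The 250 bases upstream of the RefSeq transcription start (GRCh38.p14) are printed for these genes, the ones with a window free of annotated exons. Each is written 5′ to 3′ on the strand of its gene, and capitals mark the GC box, GGGCGG or its complement CCGCCC, the motif bound by SP family factors.
ADAM8 chr10:133276869-133277118 (-): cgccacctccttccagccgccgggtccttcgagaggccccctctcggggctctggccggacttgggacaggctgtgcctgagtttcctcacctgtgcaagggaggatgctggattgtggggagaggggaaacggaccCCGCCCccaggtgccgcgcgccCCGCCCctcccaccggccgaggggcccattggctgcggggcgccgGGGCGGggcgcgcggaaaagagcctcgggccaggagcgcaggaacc
ADAM12 chr10:126388478-126388727 (-): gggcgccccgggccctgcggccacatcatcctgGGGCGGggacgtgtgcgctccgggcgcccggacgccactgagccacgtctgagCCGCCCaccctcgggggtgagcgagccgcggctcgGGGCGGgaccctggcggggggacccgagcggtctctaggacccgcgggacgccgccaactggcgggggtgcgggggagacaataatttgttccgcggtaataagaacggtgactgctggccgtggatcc
ADAM23 chr2:206443282-206443531 (+): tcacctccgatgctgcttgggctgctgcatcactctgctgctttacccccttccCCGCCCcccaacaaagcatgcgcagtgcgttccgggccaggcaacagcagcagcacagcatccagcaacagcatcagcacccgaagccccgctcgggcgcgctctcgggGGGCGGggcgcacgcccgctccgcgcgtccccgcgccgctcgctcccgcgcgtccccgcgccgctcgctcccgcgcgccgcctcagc
ADAM19 chr5:157575776-157576025 (-): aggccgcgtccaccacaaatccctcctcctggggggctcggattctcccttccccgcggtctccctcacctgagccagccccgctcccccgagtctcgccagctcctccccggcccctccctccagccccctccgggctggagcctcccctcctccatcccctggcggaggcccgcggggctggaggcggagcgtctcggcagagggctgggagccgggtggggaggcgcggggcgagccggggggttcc
ADAM8, ADAM12 and ADAM23 hold 3, 3 and 2 GC boxes in these windows, in that order, and ADAM19 holds 0. Of the other genes with a window, ADAM15 has 6, ADAM17 has 3 and ADAM10 has 1. Their windows overlap annotated exons, so they are not purely upstream sequence. Of 35116 promoters of that length, 42.6% hold at least 1. All 7 windows are rich in G and C, from 68.4% in ADAM10 to 79.6% in ADAM15, against a median of 58.0% over all promoters. Neither the AP-1 motif TGANTCA (6.57% of all promoters) nor the TATA box TATAAA or TTTATA (10.7%) was found in any of the 7, and a CCAAT box, CCAAT or ATTGG (32.0%), was found once, in ADAM8. ADAM12 and ADAM23, whose levels moved together across libraries, share the GC box in these windows with ADAM8, whose level did not move with theirs. ADAM19, which holds 0, moved with ADAM12 and ADAM23 (Pearson r = 0.76 and 0.81 over 12 libraries). Whether the GC box has a part in these levels was not tested.

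Total counts ran from 16410001 to 29504297 per library, and the lowest ADAM count in any library was 198, so sampling noise is small for all 8 genes. TGFBR3 did not follow every label. It was at 413 to 476 CPM (read counts scaled to library size by TMM) in S534A and at 520 to 574 CPM in S545A, but at 260, 20.3 and 21.4 CPM in the libraries labelled ∆GAG-BG and at 15.9, 259 and 259 CPM in those labelled control vector. Libraries 2 and 3 of these groups therefore go against their labels, which were used as given. In every group but S534A, libraries 2 and 3 were nearly the same: divided by its degrees of freedom, the chi-square of their counts was 1.40 to 1.94, where the other pairs of one group had 16.4 to 74.4. Pairs of different groups ran from 3.86 to 119. Among the closest were library 1 of S534A and S545A (3.86) and S534A library 3 with control vector library 2 (3.94). Not every library was thus most like its own group, and the reason was not tested. S534A library 2 and ∆GAG-BG library 1 stood furthest from the rest, at 119 from each other, and the ADAM values that rest on either are also given without it. Of 11 markers of ovarian carcinoma and epithelium, KRT7, KRT8, KRT18 and PAX8 were high (PAX8 at 193 to 295 CPM), WT1 and MSLN were at 3.42 to 18.0 CPM, EPCAM, FOLR1 and SOX17 did not exceed 1.77 CPM, and MUC16 and CDH1 had 0 counts in every library. The mesenchymal markers VIM (2343 to 3132 CPM), FN1 (321 to 1412 CPM) and CDH2 (115 to 150 CPM) were all high. Of 3 leukocyte markers CD3E was at 0, and PTPRC and CD68 reached 2 counts and 1 count. Of the endothelial markers, CDH5, a cadherin, was at 168 to 431 CPM, VWF was at 2.64 to 14.9 CPM and PECAM1 had at most 17 counts. Of the fibroblast markers, COL1A1 was at 7.98 to 17.7 CPM, PDGFRA reached 4 counts, and DCN and LUM had 0 counts.

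ADAM19, a meltrin that cleaves neuregulin, had the highest level of the 8 genes per kilobase of exon, with a median over 12 libraries of 58.1 CPM per kb and a range of 48.4 to 67.5. It made up 40.5% of the summed level of the 8 genes. ADAM9 followed at 28.4 CPM per kb (22.7 to 31.6), then ADAM15 at 23.6 (21.4 to 27.2), ADAM17 at 14.6 (10.9 to 17.0) and ADAM10 at 11.8 (10.2 to 12.5). The low genes were ADAM8 at 3.72 CPM per kb (2.78 to 8.90), ADAM23 at 1.90 (1.52 to 2.94) and ADAM12 at 1.43 (0.994 to 3.97). In this order, 3 steps had ranges that did not meet, namely ADAM19 over ADAM9, ADAM15 over ADAM17 and ADAM10 over ADAM8. For the other neighbours the ranges overlapped, although ADAM17 exceeded ADAM10 in 12 of 12 libraries, ADAM8 exceeded ADAM23 in 12 of 12, ADAM9 exceeded ADAM15 in 11 of 12 and ADAM23 exceeded ADAM12 in 11 of 12. S534A library 2 was the library in which both of the last orders turned. Levels rest on the summed exon length of the count table. With the longest coding transcript as length, ADAM15 (52.6) and ADAM9 (51.1) change places, and ADAM15 was the higher in 5 of 12 libraries. On that length the range of ADAM19 met that of ADAM15, although ADAM19 was the higher in 12 of 12 libraries, and ADAM23 exceeded ADAM12 in 8 of 12. The ranges of ADAM9 and ADAM17, ADAM10 and ADAM8, and ADAM8 and ADAM23 did not meet.

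**Figure D1:**
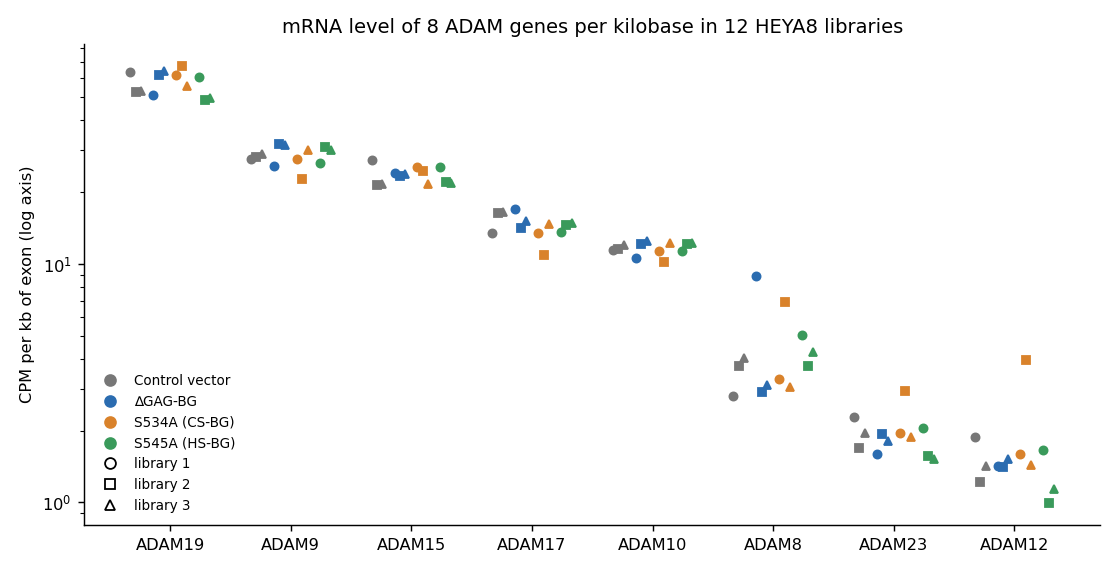
Level of each of the 8 ADAM genes in CPM per kilobase of exon (log axis), with 1 point for each of the 12 libraries, coloured by group and shaped by library number. ADAM19 lies highest at a median of 58.1, 4 genes lie between 11.8 and 28.4, and ADAM8, ADAM23 and ADAM12 lie lowest, with ∆GAG-BG library 1 and S534A library 2 above the others for ADAM8.

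The 8 genes differed in how much they varied. From the lowest to the highest of the 12 libraries, CPM differed 1.22-fold for ADAM10, 1.27-fold for ADAM15, 1.39-fold for ADAM9, 1.39-fold for ADAM19 and 1.56-fold for ADAM17, all below the median of 1.65 over all genes tested. The range was 1.93-fold for ADAM23, 3.20-fold for ADAM8 and 3.99-fold for ADAM12. Ranked by the SD of log2 CPM over the 12 libraries, ADAM8 stood at percentile 91.0 and ADAM12 at percentile 89.5 of all genes tested, and ADAM10 at percentile 9.49. Against genes within 0.5 log2 units of the same mean level, the percentiles were 97.2 for ADAM8, 96.1 for ADAM12, 76.1 for ADAM23, 69.2 for ADAM17, 65.1 for ADAM19, 54.5 for ADAM9, 39.6 for ADAM15 and 24.2 for ADAM10. ADAM17, ADAM19 and ADAM9 thus varied less than most genes in all but more than most genes of their own level. In 6 of the 8 genes S534A library 2 was either the highest library (ADAM12, ADAM19 and ADAM23) or the lowest (ADAM9, ADAM10 and ADAM17). How often this library was at an end among all genes tested is not given. Since it also stood far from the other libraries over all genes, the 6 of 8 may not be particular to ADAM genes.

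**Figure D2:**
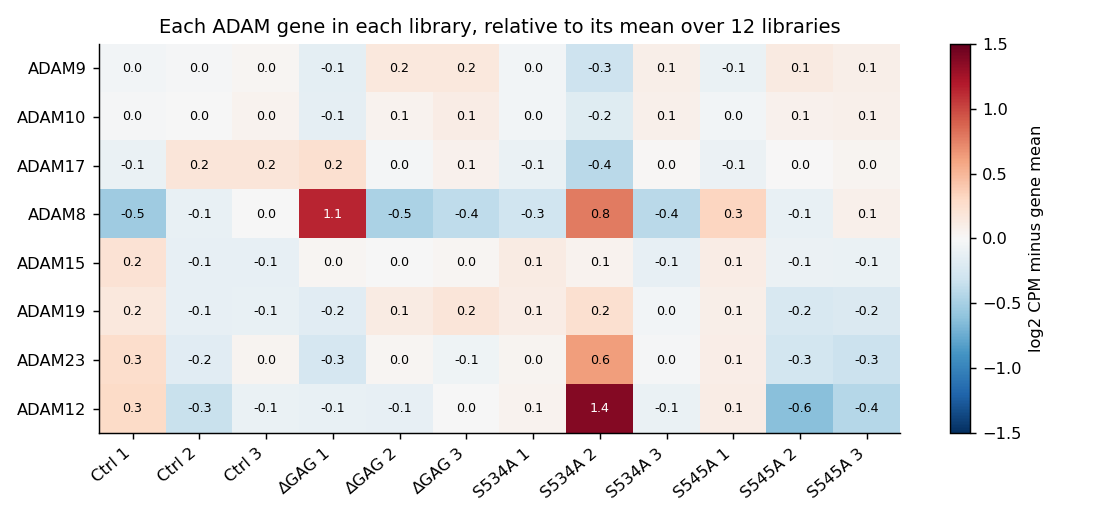
Log2 CPM of each ADAM gene (rows) in each library (columns) minus the mean of that gene over 12 libraries. S534A library 2 is high for ADAM12, ADAM8 and ADAM23 and low for ADAM17, ADAM9 and ADAM10, and ∆GAG-BG library 1 is highest for ADAM8.

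ADAM10, the protease that cleaves Notch receptors, cadherins and the amyloid precursor protein, is located on the minus strand of chromosome 15 (GRCh38, 58588807 to 58749978). Its level was 183, 165 and 198 CPM in S534A libraries 1, 2 and 3, and 182, 196 and 197 CPM in S545A. It was 171, 195 and 202 CPM in ∆GAG-BG and 185, 187 and 194 CPM in control vector. The 4 groups overlapped, and every one of the 6 comparisons had a log2 fold change between -0.06 and 0.08. The 95% intervals of ADAM10 were the narrowest of the 8 genes, with bounds from -0.26 to 0.28.

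ADAM17, known as the TNF-α converting enzyme, releases TNF and ligands of the EGF receptor and lies on chromosome 2 from 9488486 to 9555792 on the minus strand. It was at 74.0, 60.0 and 80.3 CPM in S534A libraries 1, 2 and 3, at 74.9, 80.0 and 81.7 CPM in S545A, at 93.6, 77.6 and 82.8 CPM in ∆GAG-BG and at 73.8, 89.8 and 90.2 CPM in control vector. The S534A mean of 71.4 ± 10.4 CPM (SD, n = 3) was the lowest of the 4, but its highest library lay above the lowest library of every other group. Against ∆GAG-BG the log2 fold change of ADAM17 in S534A was -0.25 (SE 0.120, edgeR adjusted p = 0.890), and against control vector it was -0.25 (SE 0.120, adjusted p = 0.871). Without S534A library 2 these values were -0.13 and -0.13, which is nearer to 0 in both comparisons. Exons of ADAM17 overlap IAH1, a gene on the opposite strand, by 1323 bp. Whether counting used the strand is not given in the sources used here. IAH1 had 457 to 949 counts per library, with log2 fold changes of -0.09 and -0.17 in the same 2 comparisons and an unadjusted p over 0.05 in both.

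ADAM9, ADAM15 and ADAM19 are meltrin-type and integrin-binding ADAMs with an intact zinc site, and none of them passed a test between the betaglycan groups. ADAM9, on chromosome 8 from 38996869 to 39105144 on the plus strand, had 185 ± 25.8 CPM in S534A, 201 ± 16.9 in S545A, 204 ± 23.7 in ∆GAG-BG and 194 ± 5.04 in control vector (SD, n = 3 each). Its lowest library was S534A library 2 at 157 CPM and its highest ∆GAG-BG library 2 at 219 CPM. ADAM15, on chromosome 1 from 155050566 to 155062775 on the plus strand, had 156 ± 13.5, 152 ± 13.1, 156 ± 2.27 and 154 ± 21.7 CPM in the same order. The widest of its 6 log2 fold changes was -0.04, in S545A against S534A. ADAM19, on chromosome 5 from 157395534 to 157575775 on the minus strand, was at 476, 520 and 427 CPM in S534A and at 469, 373 and 380 CPM in S545A. It was at 391, 477 and 497 CPM in ∆GAG-BG and at 491, 403 and 407 CPM in control vector. ADAM19 was higher in library 1 than in libraries 2 and 3 of S545A and control vector and lower in library 1 of ∆GAG-BG, so the range within each group exceeded the distance between any group means. Its widest log2 fold change was -0.22 (SE 0.130, adjusted p = 0.702 by edgeR), in S545A against S534A.

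ADAM8, best known from leukocytes and a protease of adhesion molecules, lies on chromosome 10 from 133262403 to 133276868 on the minus strand. It was at 42.5 CPM in ∆GAG-BG library 1 and at 13.9 and 14.8 CPM in ∆GAG-BG libraries 2 and 3. In S534A it was at 15.7, 33.1 and 14.5 CPM in libraries 1, 2 and 3. One library of each of these groups was thus far above the others, and the group means were 23.7 ± 16.3 and 21.1 ± 10.4 CPM (SD, n = 3). S545A was more even at 24.1, 17.8 and 20.4 CPM, as was control vector at 13.3, 17.8 and 19.2 CPM. All 4 groups overlapped. The log2 fold change of S545A against ∆GAG-BG was -0.19 (SE 0.421, 95% interval -1.12 to 0.73). Without ∆GAG-BG library 1 it was 0.54 (SE 0.321), of the opposite sign, with an unadjusted p over 0.05 as before. Without both ∆GAG-BG library 1 and S534A library 2, a choice made after the values were seen, S545A was higher than ∆GAG-BG by 0.54 (SE 0.168, edgeR adjusted p = 0.318). It was higher than S534A by 0.46 (SE 0.167, adjusted p = 0.908). Both had an unadjusted p under 0.05, as 10.5% and 5.06% of all genes did in these comparisons, and neither passed adjustment over all genes. When instead libraries 2 and 3 of ∆GAG-BG and control vector, those with TGFBR3 against their labels, were left out, ADAM8 had a log2 fold change of -1.04 in S545A against ∆GAG-BG (SE 0.413, adjusted p = 0.923), and of 1.66 in ∆GAG-BG against control vector (SE 0.547, adjusted p = 0.470), both at an unadjusted p under 0.05. These last values rest on 1 ∆GAG-BG library and 1 control library, which are assumed to vary like the other groups. The sign of ADAM8 in S545A against ∆GAG-BG also turned with limma, at 0.01, with every ∆GAG-BG library kept. In S534A against ∆GAG-BG the value was -0.16 with all libraries, 0.57 without ∆GAG-BG library 1, and 0.01 and 0.04 without S534A library 1 or 3. No direction can be given for ADAM8 in either comparison.

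ADAM12, a meltrin that cleaves heparin-binding EGF-like growth factor and insulin-like growth factor binding proteins, lies on chromosome 10 from 126012381 to 126388455 on the minus strand. It was at 15.7, 39.1 and 14.1 CPM in S534A libraries 1, 2 and 3 and at 16.4, 9.80 and 11.2 CPM in S545A. In ∆GAG-BG it was at 14.0, 13.8 and 15.0 CPM and in control vector at 18.5, 12.02 and 14.1 CPM. S534A library 2 stood alone, and the remaining 11 libraries lay between 9.80 and 18.5 CPM. The S545A mean was 12.5 ± 3.47 CPM and the S534A mean 22.99 ± 13.98 CPM (SD, n = 3), a log2 fold change of -0.89 for S545A against S534A (SE 0.345, 95% interval -1.64 to -0.13). This was the 1 difference among the ADAM genes with an unadjusted p under 0.05 by edgeR, and its adjusted p was 0.702. The two-sided exact permutation test gave p = 0.3, where 3 libraries against 3 cannot go below 0.1, and the groups overlapped. Without S534A library 2 the log2 fold change was -0.26 (SE 0.219). Summing the near-identical libraries 2 and 3 within each of their groups gave -0.78 (SE 0.432). Neither value had an unadjusted p under 0.05. ADAM12 in S534A differed from ∆GAG-BG by 0.69 (SE 0.344, edgeR adjusted p = 0.890) and from control vector by 0.63 (SE 0.343, adjusted p = 0.871). Leaving out the same library gave 0.07 and 0.00.

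ADAM23 differs from the other 7 in that its metalloprotease domain lacks the zinc-binding residues, and it acts as an adhesion protein. The gene lies on chromosome 2 from 206443539 to 206621130 on the plus strand. It was at 12.5, 18.9 and 12.01 CPM in S534A, 13.1, 10.0 and 9.77 CPM in S545A, 10.2, 12.4 and 11.6 CPM in ∆GAG-BG and 14.6, 10.8 and 12.6 CPM in control vector. As for ADAM12, the highest value was that of S534A library 2, and the lowest values were those of S545A libraries 2 and 3. S545A against S534A gave a log2 fold change of -0.40 (SE 0.190, edgeR adjusted p = 0.702), and S534A against ∆GAG-BG gave 0.35 (SE 0.190, adjusted p = 0.890). Without S534A library 2 these were -0.16 and 0.11.

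**Figure D3:**
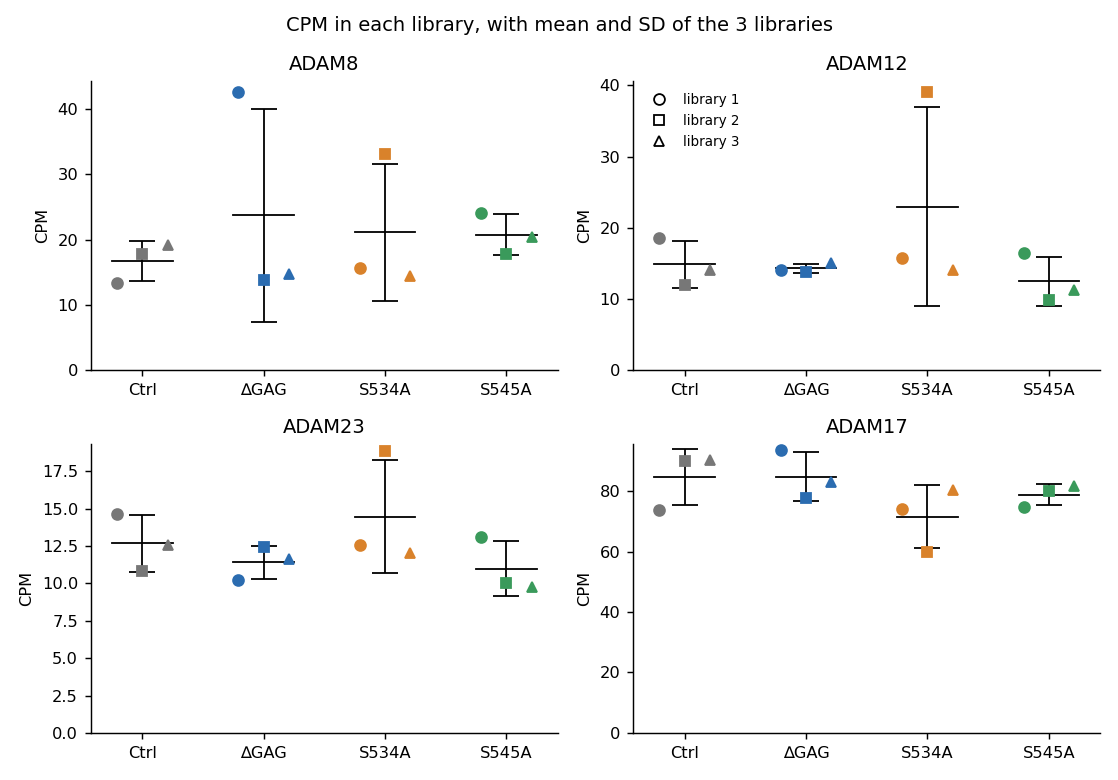
CPM of ADAM8, ADAM12, ADAM23 and ADAM17 in each library by group, from 0, with bars at the mean and ± SD of 3 libraries. ∆GAG-BG library 1 (42.5 CPM) and S534A library 2 (33.1 CPM) stand above the rest for ADAM8, and S534A library 2 (39.1 CPM) does so for ADAM12.

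Between groups, no ADAM gene had an adjusted p under 0.05 by edgeR in any of the 6 comparisons, where 0.0% of the 16069 genes tested did in each of them. DESeq2 and limma called none either. In S545A against ∆GAG-BG, the comparison of heparan sulfate-bearing with chain-free betaglycan, 0 of the 8 had an unadjusted p under 0.05 (1.1% of all genes). There, 7 of the 8 log2 fold changes were below 0, the widest being those of ADAM12 at -0.20 and ADAM8 at -0.19. All 8 intervals included 0, and the median was -0.08, against -0.01 over all genes. The share of all genes below 0 is not given, and ADAM8 was at 0.54 without ∆GAG-BG library 1. In S534A against ∆GAG-BG the count was also 0 of 8 (2.99% of all genes), with 4 values above 0 and 4 below, from -0.25 for ADAM17 to 0.69 for ADAM12. Both comparisons use the same 3 ∆GAG-BG libraries. S545A against S534A, the comparison of the chain types with each other, gave 1 of 8 (4.78% of all genes), ADAM12, which was lower (2.68% of all genes in that direction). DESeq2 gave 2 there, adding ADAM23, and 1 in S534A against ∆GAG-BG, ADAM12, while limma gave the same counts as edgeR. The shares of all genes are from edgeR, and none is given for DESeq2 or limma.

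Against control vector, ∆GAG-BG gave 0 of 8 (0.871% of all genes at an unadjusted p under 0.05), with ADAM8 at 0.50 (SE 0.424) and the other 7 genes between -0.16 and 0.07. Without ∆GAG-BG library 1 the ADAM8 value was -0.23 (SE 0.320), of the opposite sign. S534A gave 0 of 8 (3.45% of all genes), with ADAM12 and ADAM17 at the ends. S545A gave 0 of 8 (1.05% of all genes), from -0.25 for ADAM12 to 0.31 for ADAM8. These 3 comparisons share the control vector libraries. The test of any difference among the 4 groups had its smallest p at ADAM12, over 0.05 by edgeR, so 0 of 8 passed at an unadjusted p under 0.05 (1.55% of all genes) and 0 of 8 after adjustment (0.00622% of all genes, the single gene CHI3L2). DESeq2 gave 1 of 8 in that test at an unadjusted p under 0.05 and limma 0, with no share of all genes given for either. No ADAM gene had groups of libraries that did not overlap in any comparison, where 5.66% of all genes did in S534A and 5.05% in S545A when each was set against ∆GAG-BG, and 10.1% did between the 2 mutants. Against control vector, 4.87% did in ∆GAG-BG, 7.65% in S534A and 8.82% in S545A.

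For ADAM9, ADAM10, ADAM15, ADAM17 and ADAM19, the log2 fold changes lay between -0.25 and 0.14, and all 95% intervals lay between -0.51 and 0.41. Leaving out single libraries widened the span of the values to -0.34 to 0.24, both ends being ADAM17 without S534A library 3. Without libraries 2 and 3 of ∆GAG-BG and control vector it was -0.39 to 0.32, both ends again ADAM17, with an SE of 0.169 at the lower end. The intervals of ADAM8, ADAM12 and ADAM23 were wider, with 18 values from -0.89 to 0.69 and bounds from -1.64 to 1.45. These bounds are the outermost over several genes and comparisons, so most single intervals were narrower. The interval of ADAM12 in S545A against S534A (-1.64 to -0.13) was the only one that left out 0. With 3 libraries a group, differences inside the interval of each gene and comparison remain possible.

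**Figure D4:**
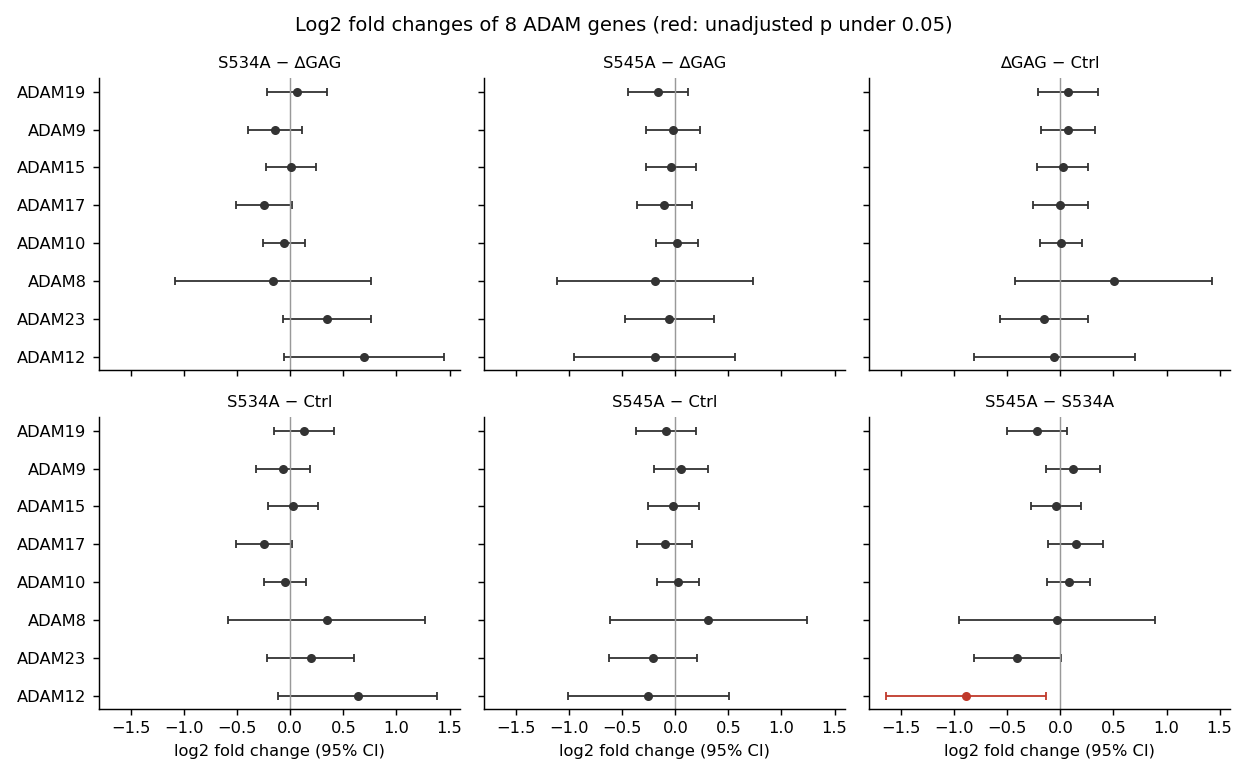
Log2 fold change with its 95% interval for each ADAM gene in each of the 6 comparisons, from edgeR, ordered by level per kilobase, with red for an unadjusted p under 0.05. ADAM12 in S545A against S534A (-0.89) is the 1 red point, and the 5 genes with the highest levels stay between -0.25 and 0.14.

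**Figure D5:**
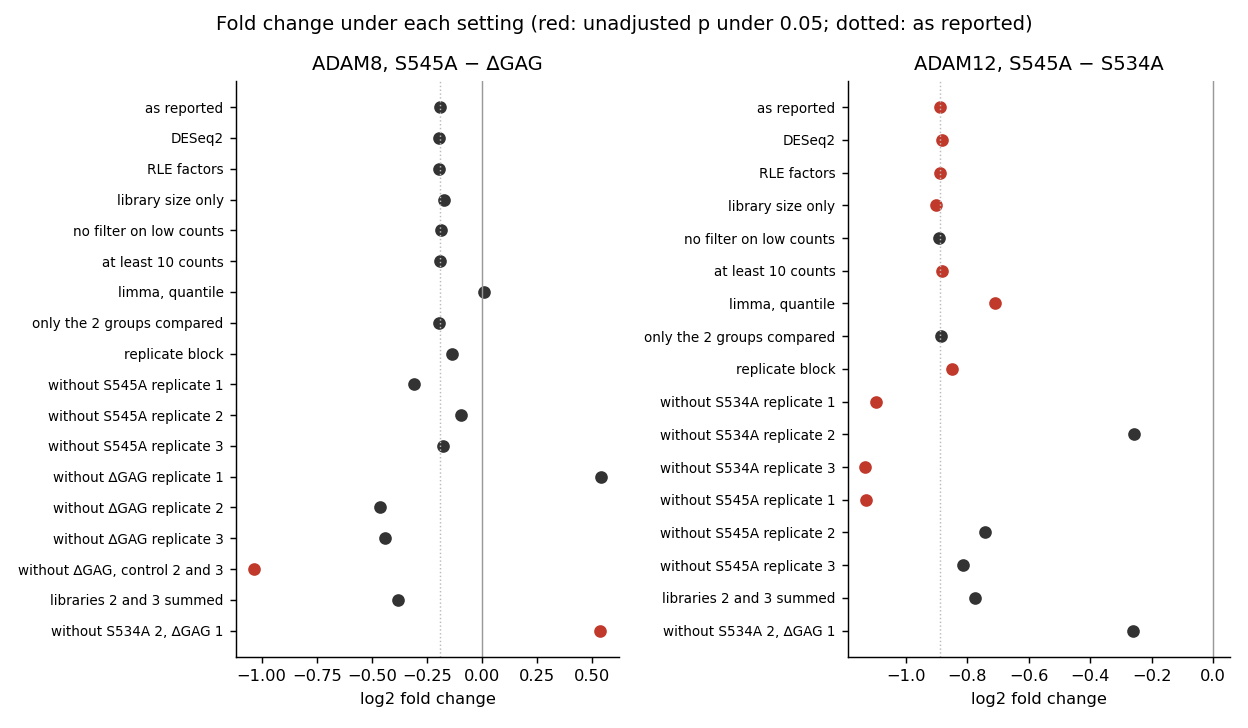
Log2 fold change of ADAM8 in S545A against ∆GAG-BG and of ADAM12 in S545A against S534A under each alternative setting, 1 row each, with red for an unadjusted p under 0.05. ADAM8 runs from -1.04 to 0.54, with 3 settings above 0 (the 2 without ∆GAG-BG library 1, and limma at 0.01), and ADAM12 stays below 0 but is at -0.26 without S534A library 2.

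Across the 12 libraries, ADAM9 and ADAM10 moved together (Pearson r = 0.96 of log2 CPM), as did ADAM12 and ADAM23 (r = 0.94). Both values stayed high in the 10 libraries left without S534A library 2 and ∆GAG-BG library 1, at 0.92 and 0.93. ADAM12 with ADAM19 was at 0.76 in 12 and 0.87 in 10 libraries. ADAM17 ran opposite to ADAM23 at -0.81, and at -0.47 without the same libraries, and ADAM8 with ADAM12 went from 0.35 to -0.30. These are descriptions, since the 12 points share groups and near-identical libraries. Among all genes tested, those whose pattern was most like that of ADAM10 were ADD1 (r = 0.99) and C1orf116 (0.98), the second of which was also most like ADAM9 (0.98), followed by GPRC5A (0.97). For ADAM12 they were GADD45GIP1 (0.99) and DDX56 (0.98), for ADAM23 BTG3 (0.98) and MEA1 (0.97), and for ADAM8 MGAT4B and STOML1 (0.96 each). ADAM17 was most like TRIM5 (0.98) and NUCB2 (0.96), ADAM15 most like GSR and SMARCA4 (0.97 each), and ADAM19 most like CNOT9 and ENO1 (0.98 each).

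Of 13 further ADAM family genes, 4 passed the filter. ADAM22, a non-catalytic member of the same branch as ADAM23, was at 7.61 to 11.02 CPM, close to ADAM23, and ADAM11, ADAM21 and ADAM32 did not exceed 1.04 CPM. ADAM2, ADAM7, ADAM30 and ADAMDEC1 had 0 counts in every library, which allows up to 3 counts, or 0.182 CPM in the smallest library. None of the 4 had an unadjusted p under 0.05 in any comparison.

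Regulators of ADAM proteases were expressed with them. Of 24 such genes (iRhoms, tetraspanins, proprotein convertases, TIMP inhibitors and others), 23 passed the filter, among them TSPAN14, a partner of ADAM10, at a median of 234 CPM, FURIN, which removes the prodomain, at 60.8 CPM, and RHBDF2, the iRhom that carries ADAM17 through the secretory pathway, at 51.4 CPM. None passed adjustment by edgeR in any comparison. At an unadjusted p under 0.05, 1 of 23 was lower in S534A against ∆GAG-BG (1.65% of all genes in that direction). This was TIMP3, at 22.3 ± 6.17 against 45.9 ± 9.03 CPM (log2 fold change -1.05, SE 0.219, edgeR adjusted p = 0.890). It was -0.83 without S534A library 2 and -1.20 without ∆GAG-BG library 1. TIMP3 was also the 1 regulator in ∆GAG-BG against control vector (0.53, where 0.871% of all genes were called). It was at 35.5, 51.8 and 50.4 CPM in ∆GAG-BG libraries 1, 2 and 3, and at 38.1, 30.2 and 27.1 CPM in control vector. The excess thus sat in libraries 2 and 3, whose TGFBR3 went against their labels, and in library 1 ∆GAG-BG was the lower. In S545A against S534A there were 2 of 23 (4.78% of all genes), TIMP3 at 0.67 and TSPAN17, a tetraspanin partner of ADAM10, at -0.21. In S534A against control vector there were also 2 of 23 (3.45% of all genes). These were FRMD8, which stabilises the iRhom and ADAM17 complex, at 0.21 and TIMP3 at -0.52. Without S534A library 2, TIMP3 against control vector (-0.30) and TSPAN17 against S534A (-0.20) no longer had an unadjusted p under 0.05, while TIMP3 in S545A against S534A (0.45) did. Both S545A comparisons with ∆GAG-BG and with control vector had 0 (1.1% and 1.05% of all genes). The median log2 fold change of the 23 regulators lay between 0.00 and 0.04 in the 6 comparisons, against -0.01 to 0.01 for all genes.

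Of 48 known substrates of these proteases, 37 passed the filter, and their median log2 fold change lay between -0.06 and 0.06. None passed adjustment by edgeR. At an unadjusted p under 0.05, S534A against ∆GAG-BG gave 2 of 37 (2.99% of all genes), IGFBP3 at 1.61 and IGFBP5 at -1.86. Both are insulin-like growth factor binding proteins of which ADAM12 is a protease. IGFBP3 in S534A was at 28.6, 153 and 18.2 CPM, so its high value sat in the library where ADAM12 was high, and IGFBP5 reached 0.836 CPM at most. Without S534A library 2 IGFBP3 was at 0.11 and IGFBP5 at -1.43, and without ∆GAG-BG library 1 they were at 1.38 and -2.36. Of these, IGFBP5 without ∆GAG-BG library 1 alone had an unadjusted p under 0.05, and 7 of 37 substrates did in that setting (3.99% of all genes). IGFBP3 was also the 1 of 37 called between S534A and control vector, at 1.72 (3.45% of all genes), and between S545A and S534A, at -1.81 (4.78%). Both were smaller without S534A library 2, at 0.21 and -0.31. TGFBR3, the expressed construct, was the 1 of 37 in S545A against ∆GAG-BG, at 2.42 (1.1% of all genes). Of 10 integrin subunits that ADAM disintegrin domains bind, 7 passed the filter. Of these, ITGB3 in S534A against ∆GAG-BG was the 1 with an unadjusted p under 0.05, at -0.28 (2.99% of all genes). ITGB1 and ITGA3, the most abundant at medians of 1038 and 1509 CPM, were not among those called.

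Markers of endoplasmic reticulum stress moved with the library in which ADAM8 was highest. The summed level of 10 such genes, among them the chaperone gene HSPA5, was 18900 CPM in ∆GAG-BG library 1 and 1073 to 7061 CPM in the other 11 libraries. S534A library 2, the second highest for ADAM8, had the lowest sum, 1073 CPM. By group the sum ran from 3169 to 18900 CPM in ∆GAG-BG, 1073 to 4312 in S534A, 3393 to 5297 in S545A and 3269 to 7061 in control vector. At an unadjusted p under 0.05, 5 of the 10 were lower in S534A than in ∆GAG-BG (1.65% of all genes in that direction), among them DDIT3 at -2.97 and HERPUD1 at -2.20 on the log2 scale, and 0 were called in the other 5 comparisons. These values rest on ∆GAG-BG library 1 and, in part, on S534A library 2. DDIT3 was at 208 CPM in ∆GAG-BG library 1 but at 6.92 and 7.68 CPM in ∆GAG-BG libraries 2 and 3. In S534A it was at 7.25, 7.37 and 14.4 CPM. HERPUD1 in S534A libraries 1, 2 and 3 was at 90.2, 27.7 and 170 CPM. Without ∆GAG-BG library 1, DDIT3 was at 0.38 and HERPUD1 at -0.06. Of the 10 genes, 0 were then called for S534A (3.99% of all genes) and 1 for S545A (5.55%) when set against ∆GAG-BG. Between ∆GAG-BG and control vector 3 were called (2.49% of all genes). Leaving out S534A library 2 also gave 0 of 10 between S534A and ∆GAG-BG. Whether this state had a part in the ADAM8 values was not tested.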

How the data were processed

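The data are mRNA counts from HEYA8 cells, 12 libraries in all, 3 in each of 4 groups. The authors deposited raw counts per gene with a summed exon length, and tools listed in the submitters' processing notes are FastQC, Trim Galore 0.4.5, STAR 2.4, SAMtools 1.2 and featureCounts. Those notes list the mouse builds mm10 and GRCm38, but the table is human: of its symbols, 36113 are in GENCODE 29 and 33655 have the same span there on GRCh38. Libraries were made with a directional kit, but the strand setting of the counting and the annotation release are not given in the sources used here. All 37 mitochondrial genes hold 0 counts.

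Low genes were removed with filterByExpr (minimum count 10). After TMM scaling, a single robust quasi-likelihood model of all 4 groups was fitted in edgeR 4.0.16 under R 4.3.3, with Benjamini-Hochberg adjustment over 16069 genes, 8 residual degrees of freedom and a biological coefficient of variation of 0.163. The fit was tested on simulated data. Two-sided exact permutation tests on CPM were run beside it. CPM per kb is CPM divided by the exon length. Total counts were 16410001 to 29504297, so the 3 counts that a listed 0 allows equal 0.100 to 0.182 CPM, a limit for counting error alone. Alternatives were DESeq2 1.42.0, limma 3.58.1 on quantile-normalized log2(CPM + 1), RLE factors, library size only, other filters, fewer groups or libraries, summed libraries and the replicate number as a block. The third S545A library has a title that reads S545S and was placed by its genotype label.

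All 8 ADAM genes are named in every comparison, with TGFBR3 and TIMP3. Of each list, at most 3 genes a comparison with the smallest unadjusted p under 0.05 are named, and for likeness the 2 genes with the highest Pearson r of log2 CPM (prior count 2). Other genes were named after their values were seen. The ADAM genes and all lists were chosen with earlier results of these data known, so they are no independent evidence. Promoter sequences are from RefSeq (GRCh38.p14), where 7 of the 8 genes matched. In S545A and control vector, libraries with the same number deviated alike (correlations 0.597, 0.305 and 0.291). Libraries 2 and 3 nearly repeat each other in both groups, so these correlations are not independent. The reported values are unpaired, and the replicate number was used as a block over all groups in an alternative only.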

Additional observations from a re-analysis of the deposited data

How the results depend on the processing

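No ADAM gene had an adjusted p under 0.05 in any comparison under any setting, where the smallest was 0.305, in S545A against S534A without S534A replicate 3. For single log2 fold changes the side of an unadjusted p of 0.05 was followed, and 777 of 808 values for 48 results kept it, while 22 newly passed, 7 no longer passed and 2 passed with the opposite sign. A further 83 values changed sign without passing in either setting, the largest of them 0.57 in size. The reversed values are both of ADAM8 without S534A library 2 and ∆GAG-BG library 1, a setting added after seeing the data: 0.54 in S545A against ∆GAG-BG and 0.46 in S545A against S534A. The cause was not tested.

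At an unadjusted p under 0.05, the number of the 8 genes called in S534A against ∆GAG-BG was 0, but 1 with DESeq2 (ADAM12), 1 with no filter on low counts (ADAM23), 1 without ∆GAG-BG and control vector libraries 2 and 3 (ADAM8), and 0 to 3 with single replicates left out, the 3 being ADAM12, ADAM17 and ADAM23 without S534A replicate 3. It was 0 for S545A against ∆GAG-BG and for ∆GAG-BG against control vector, but 1 without those 4 libraries and 1 without S534A library 2 and ∆GAG-BG library 1. Leaving out single replicates gave 0 to 0 in both. In S534A against control vector it was 0, but 1 with no filter (ADAM17) and 0 to 2 with single replicates left out. For S545A against S534A it was 1 (ADAM12), but 2 with DESeq2, 0 with only the 2 groups compared, 0 with libraries 2 and 3 summed and 0 to 3 with single replicates left out, 0 without S534A replicate 2 and without S545A replicate 2 or 3. With no filter the count was 1 too, but the gene was ADAM23, and ADAM12 (-0.89) did not pass. In the test of any difference among the 4 groups it was 0, but 1 with DESeq2, 1 without S534A library 2 and ∆GAG-BG library 1, and 0 to 1 with single replicates left out. S545A against control vector gave 0 in all of these. The matching shares of all genes are not printed beside these counts, and the share without S534A replicate 3 is not given anywhere here. The 3 of 8 found there therefore cannot be read as a trait of the ADAM genes.

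The replicate number as a block over all groups changed no call, S545A against control vector included. ADAM12 in S545A against S534A was -0.85 with it (SE 0.365, adjusted p = 0.651 by edgeR). In the other comparisons, libraries with the same number had correlations of -0.23 to 0.39.

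There were 3 libraries a group, some nearly repeated each other, and TGFBR3 went against 4 labels, which limits every value that uses ∆GAG-BG or control vector. Depth does not limit any of the 8 genes. ADAM levels per kb depend on the length used, which moved ADAM9 from 28.4 to 51.1, ADAM15 from 23.6 to 52.6, ADAM19 from 58.1 to 69.1, ADAM17 from 14.6 to 18.2 and ADAM10 from 11.8 to 16.7 CPM per kb.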

Other observations

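S534A library 2 and ∆GAG-BG library 1, chosen here after their values were seen, were the 2 highest of 12 libraries for ADAM8 and the 2 lowest for ADAM9 and ADAM10. Over all 16069 genes tested, 7.6% had both libraries on top and 7.77% had both at the bottom. Of 37 sheddase substrates, 6 had both on top, namely HBEGF, TGFA, JAG1, CD44, SDC4 and ICAM1, which is 16.2%, and 5 had both at the bottom, which is 13.5%. HBEGF, a ligand of the EGF receptor released by ADAM12 and ADAM17, was at 47.0 and 37.5 CPM in these libraries. Its level in the other 10 ran from 19.6 to 24.9 CPM. ICAM1, an adhesion molecule, was at 35.9 and 47.4 CPM, against 10.8 to 27.1 CPM.

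Of 23 sheddase regulators, 2 had both libraries on top, RHBDF2 and TIMP1, and 2 had both at the bottom, the tetraspanins TSPAN5 and TSPAN14 that accompany ADAM10, which is 8.7% each way. TIMP1, an inhibitor of metalloproteases, was at 110 and 83.8 CPM, against 50.6 to 59.4 CPM in the other 10 libraries. RHBDF2 was at 73.3 and 70.5 CPM, against 44.5 to 55.2 CPM. Each library belongs to a different group and neither pattern follows the labels. What these 2 libraries have in common was not tested.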
